A study of Mus musculus with 12 samples.

Results

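Very long genes were followed in the mouse kidney after cisplatin, with and without dichloroacetate. The set was defined by a list of 49 symbols known for their genomic spans, and the rule used no measured value, although the list was drawn up with earlier results of these data known. Of these, 48 were matched to the 28991 genes of the count table, and Naaladl2 was not analysed here. A filter on low counts left 46 of the 48 among 20370 genes tested. Ctnna3, an alpha-catenin, had 8 to 10 reads in saline mice and 0 to 3 in cisplatin mice, and Rad51b, a recombination protein, had 0 to 4 reads in every library. Both stayed below the filter.

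RNA of whole kidneys was sequenced from BALB/c mice, males of 8 weeks, in 4 groups of 3 animals, all injected intraperitoneally. Control mice received saline daily for 6 days, and dichloroacetate mice received 250 mg per kg of that drug daily for 6 days. Cisplatin mice received saline for 5 days and then 20 mg per kg of cisplatin once. Combination mice received dichloroacetate for 5 days and then cisplatin together with dichloroacetate, and both groups given cisplatin were killed 24 h after it. Cisplatin is a platinum drug that crosslinks DNA and injures the kidney tubule, and dichloroacetate inhibits pyruvate dehydrogenase kinases. The series asks whether dichloroacetate protects the kidney from cisplatin.

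A polymerase that starts at a promoter must cross every intron before an mRNA is finished. Platinum adducts on the transcribed strand stall RNA polymerase II, and a stalled polymerase calls in transcription-coupled repair, a branch of nucleotide excision repair. The longer a gene, the more adducts it carries at a given density and the longer its transcription takes. Several of these genes (Fhit, Wwox, Immp2l, Macrod2, Dmd) lie in common fragile sites, regions that break under replication stress.

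Spans were checked in the annotation. In build mm10 the 48 genes spanned 265.733 kb (Ghr) to 2270.724 kb (Ptprd), with a median of 688 kb against 15.3 kb over all tested genes, and 16 spanned 1000 kb or more. They lay on 19 chromosomes, 2 of them on X. Their exons made up 0.0925% to 7.92% of the span, with a median of 1.61%, so exons were a small part of the annotated span. Spans are the outer bounds over all annotated transcripts of a gene. Which transcripts the kidney made was not tested, and those from inner promoters would be shorter. Exons of 21 of them overlapped another annotated gene, and in 4 (Lrba, Ptprm, Prkce and Fhit) the overlap exceeded 5% of exonic length, up to 6.84%. The library kit as named keeps no strand, so reads in those stretches cannot be told apart by strand.

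RefSeq held a promoter for 39 of the 48 genes (build GRCm38.p6, 250 bases upstream of the outermost start). Those of the genes with the largest falls after cisplatin, Fhit and Immp2l, and of the only gene called higher, Mast4, are shown because all 3 genes are very long and their responses were opposite. They are written 5′ to 3′ on the gene's strand, at chr14:11162036-11162285 (minus), chr12:41023840-41024089 (plus) and chr13:103334493-103334742 (minus). Capitals mark GC boxes (GGGCGG or CCGCCC) and CCAAT boxes (CCAAT or ATTGG).
Fhit: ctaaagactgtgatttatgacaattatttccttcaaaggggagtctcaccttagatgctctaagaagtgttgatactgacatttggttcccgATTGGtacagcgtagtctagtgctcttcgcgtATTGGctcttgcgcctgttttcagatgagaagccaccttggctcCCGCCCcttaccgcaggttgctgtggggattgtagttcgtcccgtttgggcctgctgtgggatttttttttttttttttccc
Immp2l: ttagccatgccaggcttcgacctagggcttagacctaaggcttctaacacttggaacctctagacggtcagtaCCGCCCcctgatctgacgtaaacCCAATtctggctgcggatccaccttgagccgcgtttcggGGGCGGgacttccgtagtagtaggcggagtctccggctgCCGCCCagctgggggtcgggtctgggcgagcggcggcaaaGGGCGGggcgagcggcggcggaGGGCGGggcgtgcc
Mast4: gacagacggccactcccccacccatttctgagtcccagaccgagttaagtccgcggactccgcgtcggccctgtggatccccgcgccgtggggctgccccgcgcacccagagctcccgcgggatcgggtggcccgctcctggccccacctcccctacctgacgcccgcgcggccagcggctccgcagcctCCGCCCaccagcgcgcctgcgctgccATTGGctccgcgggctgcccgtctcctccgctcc
Fhit had 1 GC box and 2 CCAAT boxes, Immp2l had 5 and 1, and Mast4 had 1 and 1. None of the 3 held a TATA box (TATAAA or TTTATA). These promoters were 46.8%, 66.0% and 75.2% G and C. Over the 39 promoters, 20 (51.3%) held a GC box, 13 (33.3%) a CCAAT box and 4 (10.3%) a TATA box on either strand. The shares over all 27025 promoters of the same length were 33.0%, 34.5% and 13.0%.

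Library totals ran from 29505929 to 62237514 counts. Levels are given as CPM, counts scaled to a common TMM-adjusted library total, where TMM is edgeR's scaling factor. Adjusted p-values are Benjamini-Hochberg values over 20370 genes from edgeR's quasi-likelihood test, and a gene was called below 0.05. Kidney markers were present in every group, and no listed marker found in the table was at 0 in all mice. The summed level of 15 proximal tubule markers (Lrp2, Slc34a1, Slc5a2 and others) ranged from 36621 to 41846 CPM in saline mice and from 41228 to 43919 CPM with dichloroacetate. Cisplatin mice had 11095 to 13653 CPM, and combination mice 16911 to 20159 CPM. All 15 were called lower in cisplatin than in saline (median log2 fold change -2.10, with Gatm, Cyp2e1 and Miox at -3.74, -2.54 and -2.42), and all 15 were called higher in the combination than in cisplatin (median 0.88). Among all tested genes 30.4% were called lower in the first contrast and 18.1% higher in the second. In whole kidney, fewer cells of a type and less RNA per cell cannot be told apart, and the part of this marker shift in the long genes' values was not tested.

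By their medians, the other marker lists moved less, although single markers such as Cd68 moved more. Of 10 loop of Henle and distal tubule markers, 9 fell after cisplatin, led by Egf, Slc12a3 and Pvalb at -2.84, -2.79 and -2.27, and Cldn16 rose by 0.71. Their sum was 5043 to 5604 CPM in saline mice, 2018 to 2572 CPM after cisplatin and 1892 to 2973 CPM when both drugs were given. In collecting duct 7 of 11 fell (Aqp3, a water channel, at -1.27), in podocytes 5 of 8 fell and Cdkn1c rose, in endothelium 6 of 10 fell (Kdr, the VEGF receptor, at -0.83) and in fibroblasts and smooth muscle 3 of 10 fell (Col3a1 at -0.74). Of 9 macrophage markers, 3 rose (Cd68, Cd14 and Itgam at 4.00, 2.31 and 0.75) and 3 fell (Mrc1, Csf1r and Adgre1 at -1.15, -0.87 and -0.57). Of 5 tested neutrophil markers, 2 rose (S100a8 at 1.84 and S100a9 at 1.71). None of the 4 tested lymphocyte markers was called, and their sum, with untested markers included, was 1.41 to 3.01 CPM in all 12 mice. Among all tested genes 30.4% were called lower after cisplatin and 29.7% higher. The shares in fibroblasts and smooth muscle (30% lower) and in macrophages (33.3% each way) were near these.

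Cisplatin was compared with saline to describe how long genes behaved in the injured kidney. Of the 46 genes, 42 fell, 1 rose and 3 were not called, and their median log2 fold change was -1.72. Over all tested genes 60.1% were called, 30.4% lower and 29.7% higher, with a median of -0.01. In 43 of the 46 all 3 cisplatin mice lay below all 3 saline mice, a pattern held by 32.7% of all tested genes, and in 1 all 3 lay above, as in 32.2%. The level summed over the 48 genes was 2664 to 2696 CPM in saline and 746 to 921 CPM in cisplatin.

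Fhit, a hydrolase of dinucleoside polyphosphates, had the largest fall (ENSMUSG00000060579, chromosome 14, 9550092 to 11162035). Its level in the 3 saline mice was 4.38, 5.06 and 5.84 CPM, and in the 3 cisplatin mice 0.0852, 0.0892 and 0.125 CPM. The cisplatin values rested on 3, 3 and 5 reads, against 198 to 264 in saline, so that every cisplatin mouse was near the limit of detection. From pooled reads the cisplatin level was 2.01% of the saline level, with an exact 95% binomial interval of 0.997% to 3.61% that covers counting error only. The log2 fold change was -5.61 (adjusted p = 3.0e-10, SE 0.23). That SE was taken from the F statistic and is smaller than the counting interval implies, so it overstates the precision.

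Immp2l, which encodes a catalytic subunit of the mitochondrial inner membrane peptidase, came next (ENSMUSG00000056899, chromosome 12, 41024090 to 41955588). Saline mice had 2.88, 2.46 and 2.96 CPM, and cisplatin mice 0.312, 0.267 and 0.150 CPM, on 11, 9 and 6 reads. From pooled reads cisplatin mice held 8.74% of the saline level (exact 95% binomial interval 5.63% to 13.0%), and the groups did not overlap. The log2 fold change was -3.51 (adjusted p = 1.8e-08, SE 0.22), and here too the SE is smaller than the counting interval implies.

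Shorter relatives of these genes moved little. Hint1, a nucleotide hydrolase of the same superfamily as Fhit in a gene of 4.119 kb, was at 200, 227 and 246 CPM in saline and 246, 261 and 257 CPM in cisplatin, a log2 fold change of 0.18 (adjusted p = 0.032, SE 0.07). Immp1l, the partner subunit of Immp2l in 60.921 kb, was at 23.1, 25.2 and 24.7 CPM in saline and 18.0, 19.2 and 18.6 CPM in cisplatin, a log2 fold change of -0.39 (adjusted p = 5.4e-05, SE 0.06). Immp1l thus fell in all 3 cisplatin mice, by a smaller fold than Immp2l.

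The next falls were in genes at higher counts. Tbc1d5, a GTPase-activating protein of endosomal traffic (ENSMUSG00000023923, chromosome 17, 50733124 to 51179352), went from 20.2, 20.7 and 22.3 CPM in saline to 2.24, 2.59 and 3.02 CPM in cisplatin, a log2 fold change of -3.00 (adjusted p = 2.5e-10, SE 0.12). Fto, an RNA demethylase (ENSMUSG00000055932, chromosome 8, 91313525 to 91668439), went from 78.8, 92.1 and 86.3 CPM to 10.2, 10.3 and 13.2 CPM, a log2 fold change of -2.93 (adjusted p = 1.1e-10, SE 0.10). The cisplatin means were 12.4% and 13.1% of the saline means, and in both genes every cisplatin mouse lay below every saline mouse.

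Magi1, a scaffold of tight junctions (ENSMUSG00000045095, chromosome 6, 93675455 to 94283917), had 24.2, 24.9 and 20.3 CPM in saline and 3.44, 2.88 and 3.80 CPM in cisplatin (log2 fold change -2.78, SE 0.15). Prkce, protein kinase C epsilon (ENSMUSG00000045038, chromosome 17, 86167785 to 86657919), had 24.5, 21.1 and 20.8 CPM and 2.93, 3.33 and 3.50 CPM (log2 fold change -2.76, SE 0.12). Groups were again separate in both, with adjusted p = 4.1e-09 for Magi1 and 4.3e-10 for Prkce. Ptprg and Ptprd, receptor-type protein tyrosine phosphatases, closed the 8 largest falls. Ptprg (ENSMUSG00000021745, chromosome 14, 11553532 to 12242041) went from 59.9, 55.7 and 54.0 CPM to 8.46, 8.26 and 8.72 CPM, a log2 fold change of -2.74 (adjusted p = 2.7e-10, SE 0.11). Ptprd, the longest gene of the set (ENSMUSG00000028399, chromosome 4, 75941238 to 78211961), went from 93.6, 100 and 93.1 CPM to 12.2, 13.8 and 17.1 CPM, a log2 fold change of -2.73 (adjusted p = 1.2e-10, SE 0.10).

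**Figure D1:**
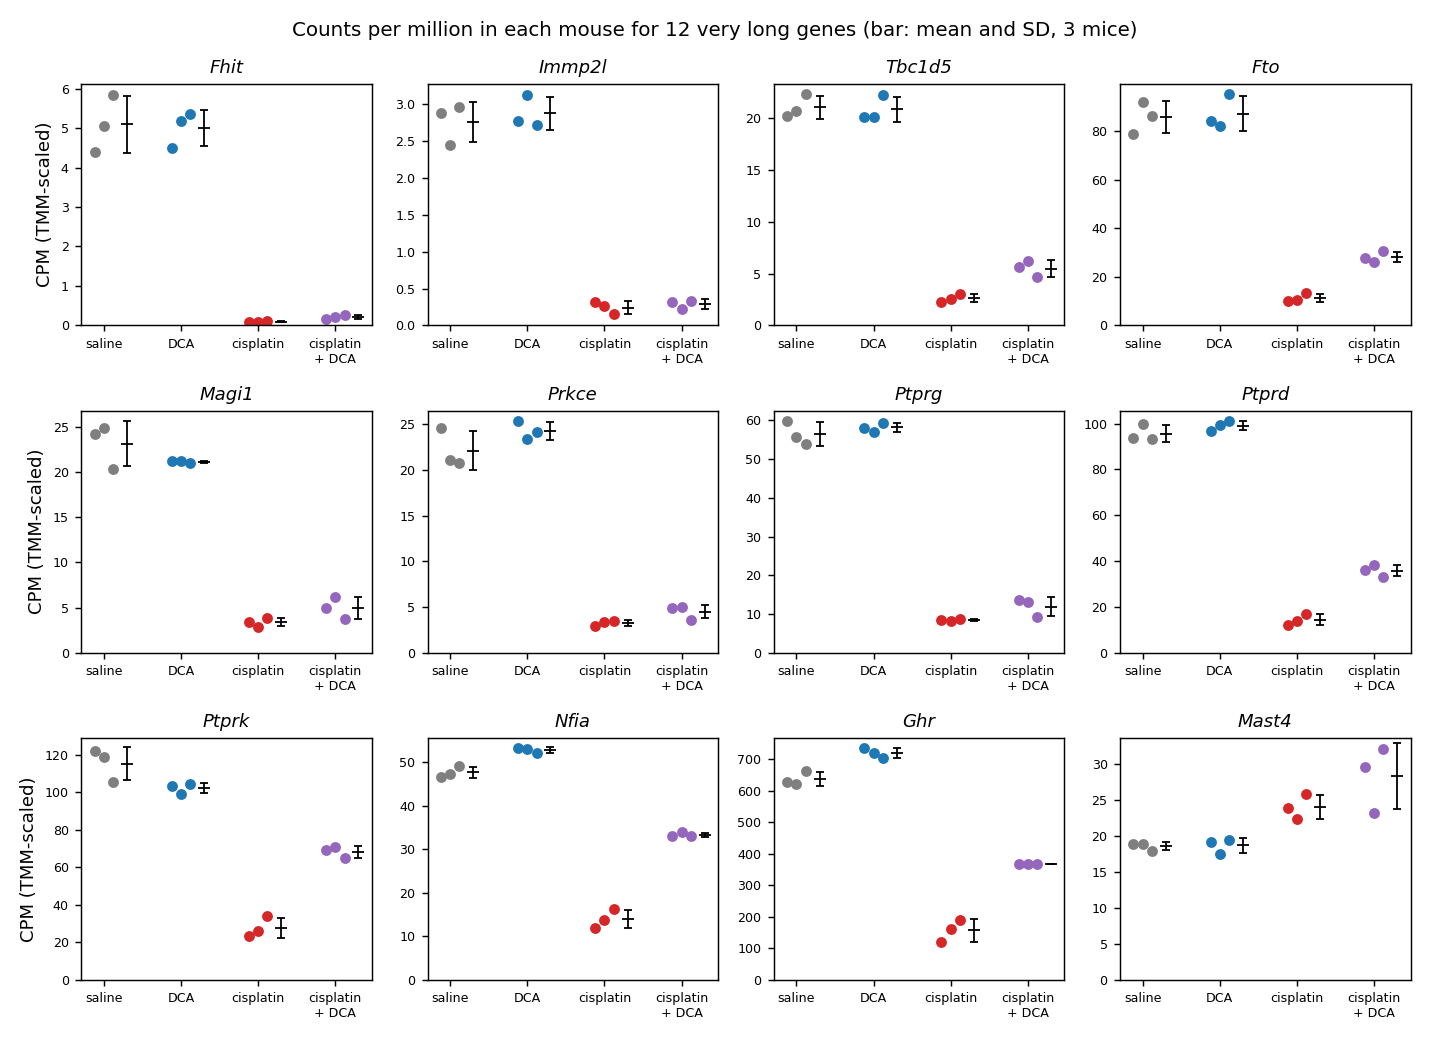
Level in each mouse (y axis, CPM on the TMM-scaled total, from 0) for 12 very long genes in saline, dichloroacetate (DCA), cisplatin and combination mice (x axis). Points are mice and bars the mean ± SD of 3; cisplatin mice lie below all saline mice in 11 genes and above them in Mast4.

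Mast4, a microtubule-associated serine/threonine kinase (ENSMUSG00000034751, chromosome 13, 102732486 to 103334497), was the only one of the 46 called higher. It had 18.9, 18.9 and 17.9 CPM in saline and 23.9, 22.4 and 25.8 CPM in cisplatin, with no overlap. The log2 fold change was 0.37 (adjusted p = 0.0054, SE 0.10). The 3 genes not called were Auts2, a chromatin regulator of neural development (log2 fold change 0.04, SE 0.08), Rora, a nuclear receptor of the circadian clock (0.17, SE 0.08, adjusted p = 0.063), and Fbxl7, an F-box protein of ubiquitin ligases (-0.77, SE 0.33, adjusted p = 0.061). Auts2 and Rora overlapped between the groups. Fbxl7 did not, but stood on 0.403 to 0.465 CPM in saline and 0.208 to 0.300 CPM in cisplatin. With library totals as the only scaling, 3 of the 46 genes were called higher instead of 1, and all-gene changes had a median of 0.26. Without dichloroacetate mouse 1, cisplatin mouse 2 or combination mouse 3 the count was 2.

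Falls were found in every class of protein, as grouped after the values were known. All 9 receptors and surface proteins fell (median log2 fold change -1.86). Beside Ptprd and Ptprg they were the phosphatases Ptprk (-2.05) and Ptprm (-1.26), the growth hormone receptor Ghr (-2.03), the neuregulin receptor Erbb4 (-1.86), the heparan sulfate proteoglycans Gpc6 (-1.35) and Gpc5 (-0.71), and the lipid-anchored cadherin Cdh13 (-1.23). All 10 tested scaffold, polarity and cytoskeleton genes fell (median -1.72). After Magi1 came the polarity proteins Pard3b (-2.56) and Pard3 (-1.74), the formin Diaph2 (-2.35), the focal adhesion protein Lpp (-2.25) and the PDZ proteins Grip1 (-1.69), Dlg2 (-0.73) and Magi2 (-0.71). Ank3, which anchors membrane proteins to spectrin, and Dmd, dystrophin, had the smallest falls of this class at -0.68 and -0.38.

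All 6 membrane traffic genes fell (median log2 fold change -2.01). Vps13b, a bridge-like lipid transfer protein, had -2.56, the exocyst subunits Exoc4 and Exoc6b had -2.17 and -1.54, and the BEACH-domain proteins Lrba and Nbea had -1.84 and -1.19. Of 10 enzyme and kinase genes, 9 fell and Mast4 rose (median -2.56). They included the pyrimidine-degrading enzyme Dpyd (-2.61), the ADP-ribose hydrolase Macrod2 (-2.51), the oxidoreductase Wwox (-1.76), the cGMP-dependent kinase Prkg1 (-1.31) and the cAMP phosphodiesterase Pde4d (-1.09). Of 9 transcription and RNA regulators, 7 fell (median -0.92). Esrrg, an orphan nuclear receptor of oxidative metabolism, had -1.98, and the transcription factors Nfia, Zbtb20, Cux1, Tcf4 and Foxp1 had -1.77, -1.70, -1.40, -0.92 and -0.81. The RNA-binding protein Rbms3 (-0.77) and the microfibril-associated protein Thsd4 (-1.09) fell as well. The smallest called fall was that of Dmd, at 11.2, 10.3 and 10.5 CPM in saline and 8.26, 7.67 and 8.70 CPM in cisplatin (adjusted p = 0.0015).

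**Figure D2:**
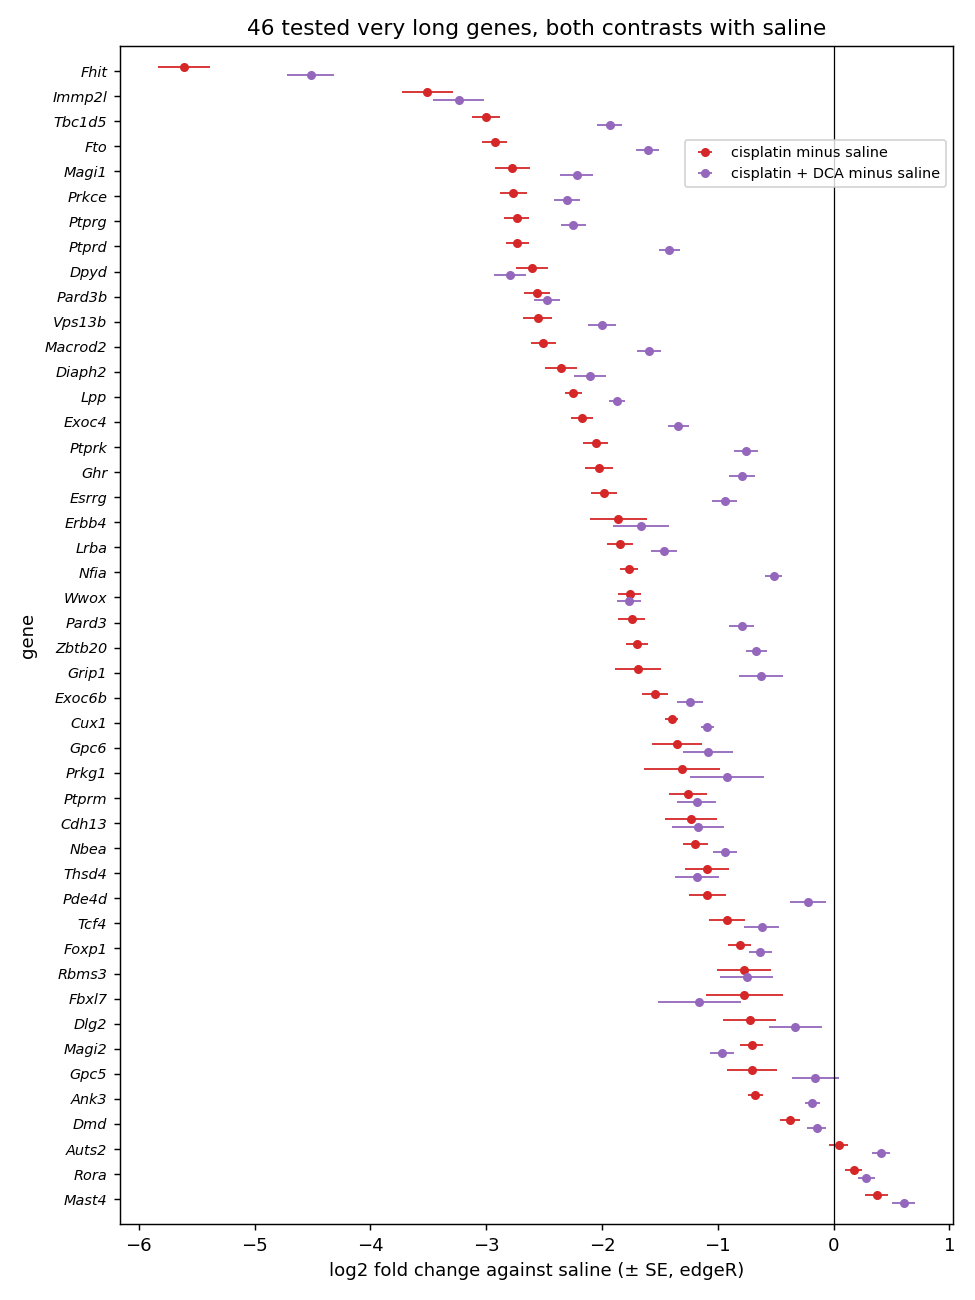
Log2 fold change against saline (x axis, ± SE from edgeR) for the 46 tested genes (y axis, ordered by the cisplatin value), for cisplatin and for cisplatin plus dichloroacetate (DCA). The cisplatin values run from -5.61 for Fhit to 0.37 for Mast4, and 43 of 46 lie below 0 in both contrasts. Bars of Fhit and Immp2l understate their counting error.

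Among these genes, greater length did not go with a deeper fall. Spearman's rho between span and log2 fold change was 0.15 over the 46 genes, which share libraries and are not independent. The 15 tested genes of 1000 kb or more had a median of -1.23 with 14 lower, and the 31 shorter genes had -1.77 with 28 lower and 1 higher. The level per kb of exon, taken from dichloroacetate mice that are not in this contrast, had a rho of -0.58. Of the 23 genes at or above the median saline level per kb, 22 fell, with a median of -2.17. Of the other 23, 20 fell and 1 rose, with a median of -1.09. Saline mice are in this contrast, so this split is not independent of the fold changes.

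Across the whole table, length and response did go together (rho -0.27 over 19824 genes with a span). Genes of over 200 to 400 kb had a median log2 fold change of -0.97, and 423 of 538 were called lower and 21 higher. Genes of over 25 to 100 kb had a median of -0.08, with 1863 of 5389 lower and 1441 higher. The fall was therefore not particular to the listed genes. Another 474 tested genes were at least as long as Ghr, and 377 of them fell and 18 rose (median -1.21).

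**Figure D3:**
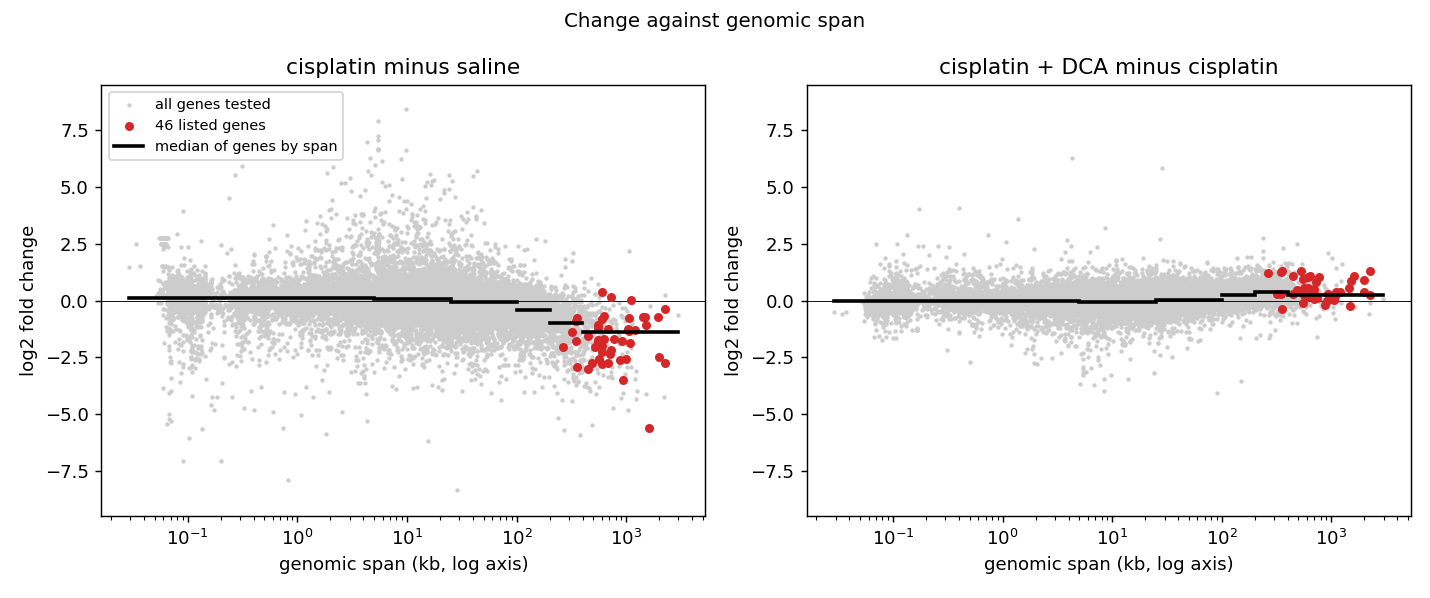
Log2 fold change (y axis) against genomic span in kb (x axis, log scale), for cisplatin minus saline (left) and combination minus cisplatin (right). The 19824 tested genes with a span are in grey and the 46 listed genes in red. Black bars are medians of genes by span, and reach -1.39 above 400 kb on the left and 0.36 between 200 and 400 kb on the right.

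For 40 of the 46 tested genes, a tested shorter gene of the same family or complex was set beside the long one, and the other 6 have no pair here. In 38 of the 40 pairs the long gene had the lower log2 fold change, and the median of long minus short was -1.26. The 2 exceptions were Dmd, whose relative Utrn (utrophin, 487.178 kb) had -1.03, and Mast4, whose relative Mast3 (26.938 kb) had -0.72. The 37 distinct relatives spanned 4.119 to 487.178 kb, and 22 fell and 9 rose. Those under 100 kb fell and rose in similar numbers, with 11 lower and 9 higher of 25 (median -0.02). All tested genes were also near evenly split, at 30.4% lower and 29.7% higher (median -0.01). Of the 12 relatives of 100 kb or more, 11 fell and 0 rose in edgeR's test (median -0.92).

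Some pairs moved in opposite directions. Fto fell by 2.93 on the log2 scale, and Alkbh5, another RNA demethylase of that family, rose by 0.24 (adjusted p = 0.0024). Prkce fell by 2.76 and Prkcd, protein kinase C delta, rose by 0.38 (adjusted p = 1.1e-04). Diaph2 fell by 2.35 and the formin Diaph1 rose by 0.63 (adjusted p = 2.3e-06). Lpp fell by 2.25 and Zyx, which encodes zyxin, rose by 0.47 (adjusted p = 1.8e-06). The largest falls among all matched relatives were those of Cux2, Dpys and Macrod1, at -1.34, -1.32 and -1.19.

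**Figure D4:**
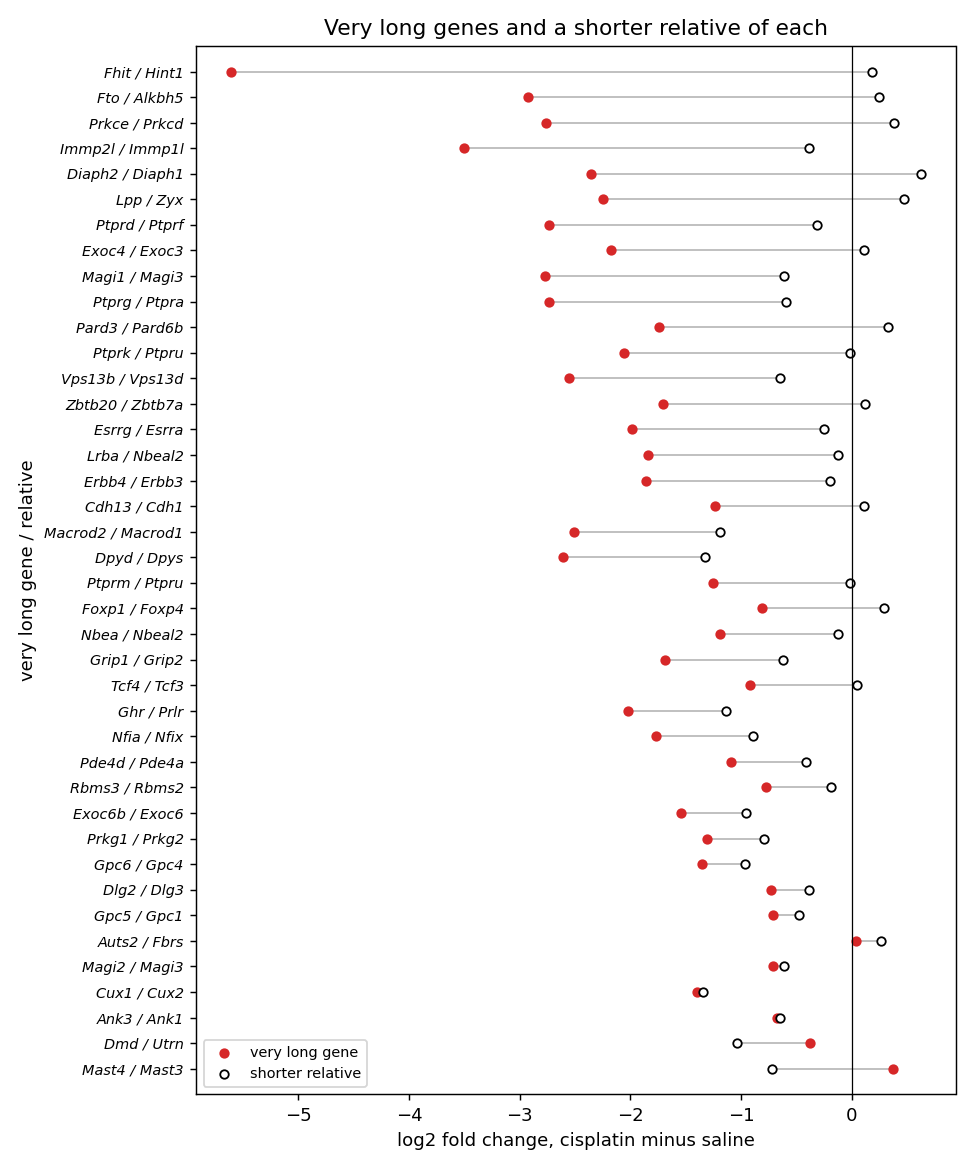
Log2 fold change, cisplatin minus saline (x axis), of 40 very long genes (red) and a shorter relative of each (open circles), joined by a line, on 1 row a pair (y axis). The long gene lies to the left in 38 of 40 pairs, and the exceptions are Dmd with Utrn and Mast4 with Mast3.

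Dichloroacetate alone was compared with saline to see what the drug did without cisplatin. No long gene was called by edgeR (0 of 46, with 0.309% of all genes called), and DESeq2 called 0. By edgeR 4 of the 46 had an unadjusted p below 0.05, as did 2427 of the 20370 genes tested. Log2 fold changes ran from -0.36 to 0.27 with a median of 0.03 and a median SE of 0.11. Dpyd had the lowest value, at 91.2, 88.8 and 82.0 CPM in saline and 58.9, 65.9 and 79.2 CPM with dichloroacetate (adjusted p = 0.25). These groups did not overlap, yet the difference missed the threshold. All 3 dichloroacetate mice lay below all 3 saline mice in 3 of the 46 genes and above them in 4, against 8.37% and 7.64% of all tested genes. Lpp, Exoc4 and Zbtb20 had 0.20, 0.22 and 0.25, with adjusted p = 0.22, 0.31 and 0.30. With library totals as the only scaling, 28 of the 46 lay below 0 instead of 14, so the direction of the set as a whole was not fixed.

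The combination was then compared with cisplatin to ask whether dichloroacetate changed the levels of these genes in treated mice. Of the 46 genes, 22 were higher in the combination, 0 were lower and 24 were not called (median log2 fold change 0.38). Over all genes 31.6% were called, 18.1% higher and 13.5% lower. By DESeq2 the counts were 22 and 0 as well. By edgeR 29 of the 46 had an unadjusted p below 0.05, as did 8363 of the 20370 genes tested. All 3 combination mice lay above all 3 cisplatin mice in 24 genes and below them in 1, Magi2, against 25.2% and 21.6% of all genes. With library totals as the only scaling, 1 gene was called lower, the median was 0.25 and 10 values lay below 0 in place of 5. The cisplatin mice are shared with the comparison above, so the sizes of fall and rise are not independent of each other.

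Fto and Ptprd rose most. Fto had 10.2, 10.3 and 13.2 CPM in cisplatin and 27.6, 26.3 and 30.6 CPM in the combination, a log2 fold change of 1.32 (adjusted p = 3.1e-06, SE 0.10). Ptprd had 12.2, 13.8 and 17.1 CPM and 35.9, 38.2 and 33.2 CPM, also 1.32 (adjusted p = 2.4e-06, SE 0.10). Both remained well under saline, at 32.9% and 37.4% of its mean level.

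Ptprk, a phosphatase of cell contacts (ENSMUSG00000019889, chromosome 10, 28074820 to 28597397), had 122, 119 and 106 CPM in saline and 103, 99.2 and 104 CPM with dichloroacetate. It had 23.3, 26.2 and 33.8 CPM in cisplatin and 69.4, 70.6 and 64.8 CPM in the combination, a log2 fold change of 1.30 (adjusted p = 4.2e-06, SE 0.11). The 4 groups were thus fully apart, in the order saline, dichloroacetate, combination and cisplatin, though the first pair did not differ by the test. Nfia, a transcription factor of the nuclear factor I family (ENSMUSG00000028565, chromosome 4, 97772734 to 98118874), had 46.7, 47.3 and 49.0 CPM in saline, 11.98, 13.8 and 16.1 CPM in cisplatin and 32.9, 33.9 and 33.0 CPM in the combination. Its log2 fold change against cisplatin was 1.25 (adjusted p = 1.0e-06, SE 0.08), and combination mice held 69.8% of the saline level.

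Ghr, the receptor for growth hormone and the shortest of the set (ENSMUSG00000055737, chromosome 15, 3317760 to 3583492), had 627, 620 and 661 CPM in saline and 736, 720 and 705 CPM with dichloroacetate. Cisplatin mice had 119, 161 and 189 CPM and combination mice 368, 367 and 368 CPM, a log2 fold change of 1.23 (adjusted p = 9.8e-06, SE 0.12). The combination mice were alike, while the cisplatin mice varied (156 ± 35.5 CPM, SD, n = 3). Tbc1d5 went from 2.24, 2.59 and 3.02 CPM in cisplatin to 5.66, 6.19 and 4.63 CPM in the combination, a log2 fold change of 1.07 (adjusted p = 4.7e-05, SE 0.13).

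The other genes called higher in the combination were Grip1 (1.06), Esrrg (1.05), Zbtb20 (1.03), Pard3 (0.95), Macrod2 (0.91), Pde4d (0.87), Exoc4 (0.83), Vps13b (0.56), Magi1 (0.56), Ank3 (0.49), Ptprg (0.49), Prkce (0.46), Lrba (0.38), Lpp (0.37), Auts2 (0.36) and Cux1 (0.31), all as log2 fold changes. Magi1 and Prkce were the least secure of those given by mouse, since each lost its call with library totals as the only scaling and without single mice. The log2 fold change of Magi1 was 0.55 without cisplatin mouse 1, 0.46 without cisplatin mouse 2 and 0.36 without combination mouse 2. That of Prkce was 0.37 without cisplatin mouse 1, 0.40 without combination mouse 1 and 0.38 without combination mouse 2. Magi1 had 4.97, 6.19 and 3.72 CPM in the combination, and its lowest mouse lay under the highest cisplatin mouse. Prkce had 4.84, 4.94 and 3.62 CPM and did not overlap. Ptprg had 13.7, 13.0 and 9.08 CPM, again with every combination mouse above every cisplatin mouse.

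Of the 42 genes that fell after cisplatin, 21 were called higher in the combination and 21 were not. The genes not called included the 2 that had fallen most. Fhit had 0.163, 0.217 and 0.274 CPM in the combination, on 5, 8 and 9 reads, above the cisplatin mice without overlap, but its log2 fold change of 1.09 (adjusted p = 0.083, SE 0.39) missed the threshold. Its pooled level was 4.35% of saline (exact 95% binomial interval 2.71% to 6.65%). Immp2l had 0.325, 0.217 and 0.335 CPM and overlapped with cisplatin (log2 fold change 0.27, SE 0.32, adjusted p = 0.64). A small difference was not detectable at this depth in either gene, and both SEs understate the counting error on so few reads.

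Other genes stayed low at higher counts. Dpyd had 15.2, 11.3 and 16.4 CPM in cisplatin and 12.5, 11.1 and 14.3 CPM in the combination (log2 fold change -0.19, SE 0.14, adjusted p = 0.36). Wwox had 3.41, 3.80 and 3.77 CPM and 4.26, 3.23 and 3.50 CPM (-0.00, SE 0.11, adjusted p = 0.98). Pard3b had 2.33, 2.20 and 2.65 CPM and 2.31, 3.02 and 2.31 CPM (0.09, SE 0.13, adjusted p = 0.65). In these 3 genes the groups overlapped. The SE of Wwox was as small as in many genes that rose, while those of Dpyd and Pard3b were larger than in most of them. Mast4 had 29.5, 23.2 and 32.1 CPM in the combination, not called against cisplatin (0.23, SE 0.10, adjusted p = 0.093). Without combination mouse 2 it was called, at 0.36.

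Genes called higher in the combination were mostly those well expressed per length. Of the 23 genes at or above the median saline level per kb of exon, 18 were called higher. Of the other 23, 4 were, a share near the 18.1% of all tested genes called higher. The rho between that level and the log2 fold change was 0.52 over 46 genes, against -0.16 for span and 0.02 for exonic length. Power to call a change grows with counts, and its part in the split was not tested. By class, 4 of 9 receptor genes, 5 of 10 scaffold genes, 4 of 6 traffic genes, 4 of 10 enzyme genes and 5 of 9 regulators were called higher. Among the other 474 genes at least as long as Ghr, 169 were higher and 9 lower (median 0.31). Of these, 358 had a mean of 1 CPM or more, and among them 166 were higher and 8 lower (median 0.40). That share, 46.4%, was near the 47.8% of the listed genes. By span the median was 0.23 in genes of over 100 to 200 kb, 0.36 in those of over 200 to 400 kb, 0.26 above 400 kb and -0.01 in those of up to 5 kb.

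The interaction, the log2 response to cisplatin with dichloroacetate minus that without it, tests whether the fall itself differed. It was called in 17 of 46 genes, all positive (18.6% of all genes were called, 11.4% positive and 7.15% negative). By edgeR 22 of the 46 had an unadjusted p below 0.05, as did 6398 of the 20370 genes tested. The largest value was that of Ptprk, 1.47 (adjusted p = 7.0e-05, SE 0.15), followed by Fto at 1.30 (adjusted p = 9.4e-05, SE 0.14), Grip1 at 1.29 (adjusted p = 0.0059, SE 0.28) and Ptprd at 1.26 (adjusted p = 8.2e-05, SE 0.13). Nfia had 1.10 (adjusted p = 6.7e-05, SE 0.11), Tbc1d5 1.08 (adjusted p = 6.8e-04, SE 0.16) and Ghr 1.06 (adjusted p = 8.1e-04, SE 0.16). The call of Magi1 (0.69, SE 0.21, adjusted p = 0.034) was lost when any 1 of 9 mice was left out, those being all but saline mouse 3, cisplatin mouse 3 and combination mouse 3, with values of 0.49 to 0.70. All 17 were among the 22 called higher in the combination, a contrast that uses the same cisplatin and combination mice and is not independent of the interaction. Lpp, Lrba, Prkce, Ptprg and Auts2 were not called for the interaction. Proximal tubule markers moved the same way, with 13 of 15 called positive, and their part was not tested. Positive calls were not particular to the listed genes, whose median was 0.33. Among the other 474 genes at least as long as Ghr, 140 were called positive and 3 negative (median 0.34). Of these, 358 had a mean of 1 CPM or more, and among them 140 were positive and 3 negative (median 0.40).

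**Figure D5:**
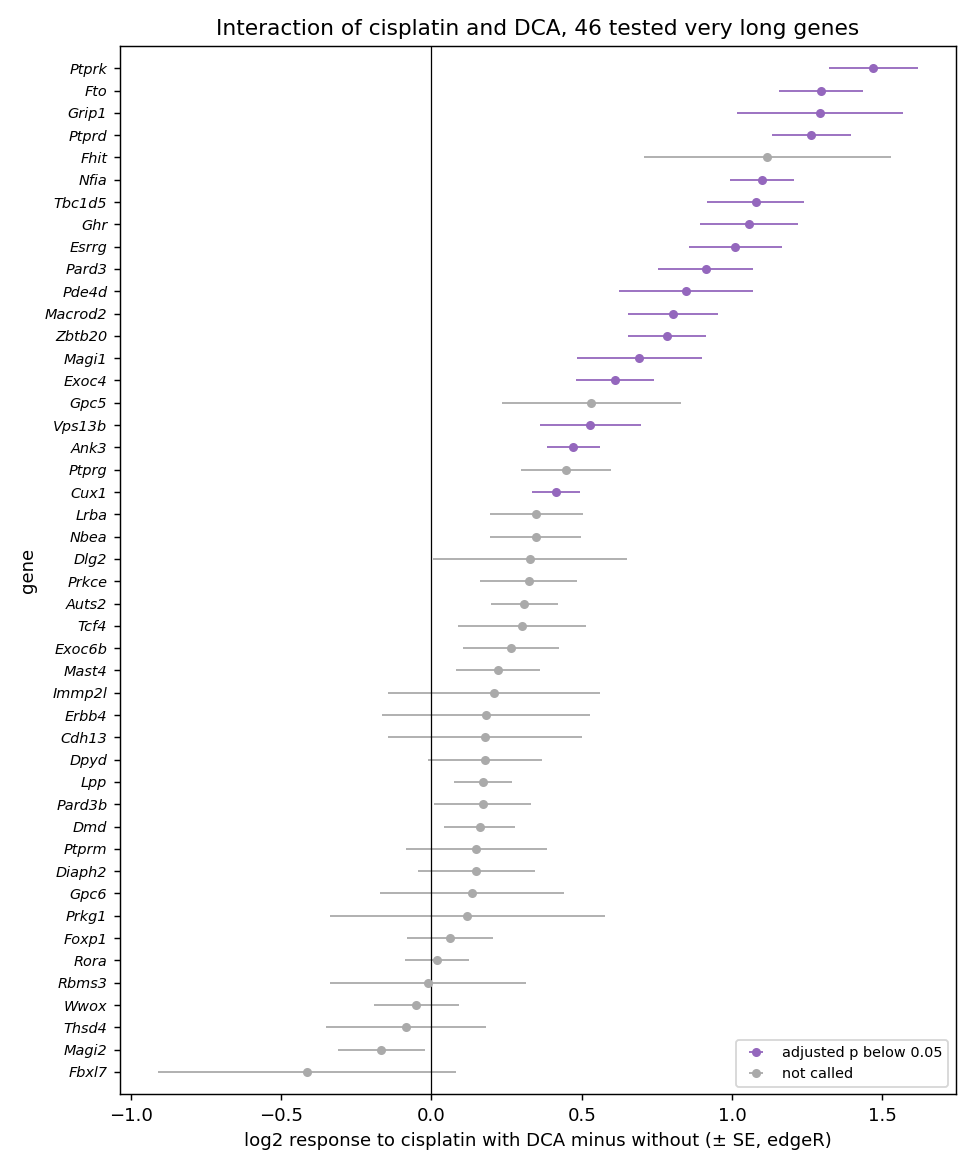
Interaction of cisplatin and dichloroacetate (DCA) on the log2 scale (x axis, ± SE from edgeR) for the 46 tested genes (y axis, ordered by value). The 17 called genes, in purple, run from 0.42 (Cux1) to 1.47 (Ptprk), and the grey genes, Fhit among them at 1.12, were not called. Bars of Fhit and Immp2l understate their counting error.

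Long genes remained below control levels in most cases when both drugs were given. Against saline, 39 of 46 were lower, 3 higher and 4 not called (median log2 fold change -1.12), with 19.6% of all genes lower and 20.6% higher, or 40.2% called in all. All 3 combination mice lay below all 3 saline mice in 40 genes and above them in 3, against 23.6% and 26.7% of all genes. Of the 42 that fell after cisplatin alone, 38 were also lower here. The 4 others were Pde4d, Dlg2, Gpc5 and Dmd, at 85.6%, 79.2%, 89.8% and 90.3% of the saline level. Their log2 fold changes had SEs of 0.15, 0.23, 0.21 and 0.08. The 3 genes above saline were Mast4 (0.60, SE 0.10, adjusted p = 3.2e-04), Auts2 (0.41, SE 0.08, adjusted p = 0.0012) and Rora (0.28, SE 0.07, adjusted p = 0.0089). Against dichloroacetate alone, 38 were lower, 2 higher and 6 not called (median -1.14), with 40.7% of all genes called, 19.2% lower and 21.5% higher. The summed level of the 48 genes was 1391 to 1415 CPM in the combination and 2796 to 2866 CPM with dichloroacetate alone.

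Genes of transcript elongation and transcription-coupled repair rose on balance after cisplatin. Of 50 tested, 26 rose, 5 fell and 19 were not called (median log2 fold change 0.18, against -0.01 over all genes, of which 29.7% rose and 30.4% fell). The largest rises were those of Leo1, a subunit of the PAF1 elongation complex, from 8.60 to 21.7 CPM (1.33, SE 0.08, adjusted p = 1.7e-08), Ercc5, which encodes the repair nuclease XPG, from 19.8 to 49.3 CPM (1.32, SE 0.06, adjusted p = 6.3e-10), and Ercc1, a subunit of the partner nuclease, from 7.99 to 17.0 CPM (1.09, SE 0.09, adjusted p = 3.4e-07). The largest falls were those of Gtf2h2, a subunit of the repair and initiation factor TFIIH (-0.54, SE 0.09), Xpa, a damage-binding repair protein (-0.29, SE 0.07), and Scaf8, a factor that binds elongating polymerase (-0.22, SE 0.08). Between combination and cisplatin, 1 of the 50 was higher and 13 were lower (median -0.09), against 18.1% and 13.5% of all genes. Leo1, Ercc1 and Ercc5 were among these, at -0.55, -0.73 and -0.29. The median span of this list was 33.7 kb.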

How the data were processed

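Kidney RNA was sequenced from 12 mice in 4 groups of 3. Per the labels' protocols, libraries were made with a TruSeq RNA kit. Tools named in the submitters' processing notes, in no order, include TopHat, HTSeq and DESeq, with build mm10. Settings of alignment and counting: not given in the sources used here. For each library, the authors deposited whole-number counts per Ensembl gene, and these counts were used as deposited. Their table of normalised values was not used. The labels call the replicates biological, and no source says more about their origin, so p-values measure the spread between these samples. Identifiers were matched to GENCODE M21 (27955 of 28991, with 1036 left without a symbol), which gave spans and coordinates. Promoters are from RefSeq.

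Genes passing filterByExpr (20370) were fitted in 1 edgeR 4.0.16 quasi-likelihood model over 12 libraries with TMM scaling (R 4.3.3, 8 residual degrees of freedom, biological coefficient of variation 0.092). The fit was also run on simulated counts with the same spread for every gene and few changed genes. That setting is simpler than these data, and its outcome is not reported here. Tests are 2-sided. SEs were taken from the F statistic, as the size of the log2 fold change over the root of F. For genes with very few reads, such as Fhit and Immp2l, they understate the counting error. DESeq2 1.42.0, other scalings, no filter, a replicate block, the compared groups alone, a threshold of 0.01 and each mouse left out were alternatives. Same-numbered mice did not deviate together (18 correlations of -0.095 to 0.152), so replicate numbers were not taken as pairs. Replicate libraries differed beyond counting noise (chi-square per degree of freedom 4.40 to 26.3). Separate libraries of the same RNA can differ so too, so this does not show separate animals. Each was counted as a separate sample because the labels call the replicates biological. The long genes, the other lists, the relatives and the classes of protein were chosen with earlier results of these data known. Per-mouse values are given for the 8 largest falls and all rises after cisplatin, the 6 largest rises in the combination and the 5 interaction calls with the smallest adjusted p, at 1 CPM or more, and for Fhit, Immp2l and 1 relative of each. Other genes given by mouse, Dpyd, Wwox, Pard3b and Dmd, were chosen after their values were seen. From each other list the 3 largest called rises and falls were eligible to be named, and 1 pair of relatives is not reported here.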

Additional observations from a re-analysis of the deposited data

Results flagged for a closer look

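The response to cisplatin differed with and without dichloroacetate in 17 very long genes, by the interaction term of edgeR's fit at an adjusted p below 0.05. On the log2 scale, with positive values for a smaller fall under dichloroacetate, the differences were 1.47 for Ptprk, 1.30 for Fto, 1.29 for Grip1, 1.26 for Ptprd, 1.10 for Nfia, 1.08 for Tbc1d5, 1.06 for Ghr and 1.01 for Esrrg. They were 0.91 for Pard3, 0.85 for Pde4d, 0.80 for Macrod2, 0.78 for Zbtb20, 0.69 for Magi1, 0.61 for Exoc4, 0.53 for Vps13b, 0.47 for Ank3 and 0.42 for Cux1. All 17 genes had fallen after cisplatin alone. The interaction uses the same saline and cisplatin mice as that fall, so these results are not independent. Across all tested genes 11.4% were called with a positive interaction and 7.15% with a negative one. Of 358 other genes at least as long as Ghr with a mean of 1 CPM or more, 140 were called positive and 3 negative. Positive calls were thus not particular to the listed genes.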

How the results depend on the processing

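No value changed direction past the threshold under any alternative. Of the values for the set as a whole, 334 were scored as the same as in the main fit and 17 as moved. The same meant a count of calls of similar size, or a median that shifted by less than the genes' median SE. Scaling to library totals alone moved the median of all genes to 0.26 for cisplatin against saline and to -0.11 for the combination against cisplatin. It gave 3 genes called higher after cisplatin with a median of -1.45, 1 gene called lower in the combination than in cisplatin with a median of 0.25, and medians of -0.95 against dichloroacetate and -0.98 against saline for the combination. Fitting only the compared groups gave 2 genes higher after cisplatin. The cause of these shifts was not tested beyond the scaling itself. Leaving out each mouse gave 1 to 2 genes higher and 40 to 43 lower after cisplatin, with medians of -1.84 to -1.60. For the combination the medians were -1.34 to -0.99 against dichloroacetate and -1.35 to -0.98 against saline. Genes higher in the combination than in cisplatin numbered 19 to 24, and positive interaction calls 14 to 19.

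The replicate numbers did not pair the mice, and a fit with the replicate block called 42 genes lower and 1 higher after cisplatin, 22 higher in the combination than in cisplatin and 16 for the interaction, close to 17 without it. The interaction of Ptprg was called in 3 settings. Mast4 was called without combination mouse 2, both for the interaction (0.35) and against cisplatin (0.36). Precision for Fhit, Immp2l, Prkg1, Fbxl7, Dlg2, Gpc5 and the untested Ctnna3 and Rad51b is limited by their few reads, and for the others mainly by 3 mice per group.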
